A study of Homo sapiens with 6 samples.

Results

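The genes described here encode 9 subunits of Polycomb repressive complex 1 (PRC1): the chromobox genes CBX2, CBX6, CBX7 and CBX8, the PCGF genes BMI1 and PCGF2, the ubiquitin ligase genes RING1 and RNF2, and the Polyhomeotic gene PHC2. They were chosen by name, as known PRC1 subunits listed in the gene count table, and not by their values. All 9 were found, out of 56638 genes. In the DMSO-treated cells, all 8 of them with enough input counts had H3K4me3 above input and H3K27me3 below it. Of all genes with enough input, 43.8% were above input in H3K4me3 and 27.3% in H3K27me3, so H3K27me3 below input is common. With MAK683 the 8 genes were on the same sides of input. Relative to all genes, H3K27me3 was called higher in MAK683 at 2 of the 9, CBX6 and RNF2, both below input in each treatment. It was called higher at 15.9% of all genes and at 20.5% of those with H3K4me3 at least 1.5-fold over input in DMSO. H3K4me3 was called lower at 6 of the 9, CBX2, CBX7, CBX8, BMI1, PCGF2 and RING1, as it was at 21.8% of all genes and at 59.7% of those with H3K4me3 at least 1.5-fold over input in DMSO.

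PRC1 and PRC2 are the main Polycomb complexes, which keep developmental genes silent. PRC2 puts methyl groups on lysine 27 of histone H3, and the chromodomain of a CBX subunit reads the trimethylated form (H3K27me3) and brings canonical PRC1 to it. There RING1 or RNF2, held by a PCGF subunit, attaches ubiquitin to histone H2A, and PHC subunits polymerize and compact the chromatin. Trimethylated lysine 4 (H3K4me3) marks the start sites of genes that are transcribed or poised, most of them with CG-rich promoters.

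The cells were G401, a malignant rhabdoid tumor line that has lost SMARCB1, a subunit of the SWI/SNF chromatin remodeler. Treatment lasted 3 days, with DMSO as the vehicle or MAK683 at 3 µM, a compound that inhibits PRC2 by binding its EED subunit. Both groups were cultured in medium with serum and 2-mercaptoethanol. For each treatment 1 library of H3K27me3, 1 of H3K4me3 and 1 of input chromatin, sequenced without an antibody, were counted over genes. With 1 library each there is no replicate check, and no p-value is given. The 95% intervals are exact (Clopper-Pearson) and cover counting error only, not differences between cultures or chromatin preparations, and PCR reads are not independent molecules. The 6 libraries held between 13308099 (H3K27me3 in MAK683) and 21281877 (H3K4me3 in DMSO) counts. SMARCB1 had 0 counts in both inputs, which allows up to 0.178 CPM (counts divided by the library total and scaled to a fixed total) in DMSO and 0.154 in MAK683 by a floor of 3 counts.

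A level is given as the log2 of antibody CPM over input CPM of the same treatment, since counts over whole genes follow gene length. A mark confined to the start still gives a lower ratio in a long gene. A level of 1.5-fold over input counts as a call. Levels were called where the inputs of both treatments summed to 100 counts or more, as for 21263 genes. A change is the log2 ratio of MAK683 to DMSO counts of the same antibody, less the median over all genes, which was -0.44 for H3K27me3 and -0.11 for H3K4me3. At that median a gene has 42.4% of its H3K27me3 counts and 48.0% of its H3K4me3 counts in MAK683. A gene is called lower or higher when the whole interval of its own share lies below or above that value. The counts carry no spike-in scaling, so a change tells of a gene's part in its library. How much H3K27me3 was left in the treated cells cannot be told from it.

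The start regions of the 9 genes were read first, since H3K4me3 lies at promoters and follows their CG content. In the 300 bases from 250 before to 50 after the start of the canonical transcript (GENCODE release 44 on GRCh37), CG dinucleotides, which read the same on both strands, numbered between 18 at PCGF2 and 57 at CBX2. The median was 41 for the 9 genes and 23 for all 20079 promoters read, and 8 of the 9 lay above that median. A CG occurs at least once in 98.2% of all promoters. As many as 57 occur in 0.259% of promoters and as many as 18 in 62.0%. GC content ran from 66.7% to 87.7%, against a median of 63.7%. The window of PCGF5 is shown, a PCGF gene of variant PRC1 whose histone marks differed from those of the 9 genes. It lies at chr10:92980170-92980469 on the plus strand and is written 5′ to 3′ with CG in capitals.
PCGF5: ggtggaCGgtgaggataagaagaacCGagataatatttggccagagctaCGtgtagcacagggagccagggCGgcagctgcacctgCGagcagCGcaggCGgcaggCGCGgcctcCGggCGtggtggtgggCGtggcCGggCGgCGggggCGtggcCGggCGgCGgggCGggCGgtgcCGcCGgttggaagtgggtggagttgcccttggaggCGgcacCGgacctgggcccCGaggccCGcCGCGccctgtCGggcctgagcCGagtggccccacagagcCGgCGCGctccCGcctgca
The PCGF5 window held 35 CG, nearer to those of RING1 and RNF2 with 41 each than to that of PCGF2. Between PCGF2 and CBX2 lay CBX7 with 50, CBX6 with 47, BMI1 with 36, CBX8 with 32 and PHC2 with 30.

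The 4 CBX genes encode the subunits that bind H3K27me3. CBX2 (chr17:77751947-77761782, plus strand) had 105 input, 89 H3K27me3 and 1186 H3K4me3 counts in DMSO, and 158, 79 and 872 in MAK683. CBX8 (chr17:77765931-77775482, minus strand) had 121, 87 and 1714 in DMSO, and 117, 49 and 1366 in MAK683. Both are short genes side by side on chromosome 17, and in both treatments the order was the same, with H3K4me3 far above input and H3K27me3 below it. CBX6 (chr22:39257427-39268254, minus strand) had 163, 78 and 1392 counts in DMSO and 212, 88 and 1231 in MAK683. CBX7 (chr22:39516172-39548685, minus strand) had 398, 231 and 1590 in DMSO and 509, 194 and 1241 in MAK683. CBX7 spans 32.5 kb and the other 3 genes 9.55 to 10.8 kb, and its larger input goes with that length.

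Over input, H3K4me3 in DMSO was 11.1-fold at CBX8 (log2 3.48, 95% interval 3.22 to 3.76), 8.87-fold at CBX2 (3.15, 2.87 to 3.46), 6.73-fold at CBX6 (2.75, 2.52 to 3.00) and 3.16-fold at CBX7 (1.66, 1.5 to 1.82). In MAK683 the log2 values were 3.53, 2.45, 2.52 and 1.28. The values at CBX8 thus differed by less than their counting error, while the value at CBX2 was smaller by more than its interval in DMSO. The input of CBX2 was 6.24 CPM in DMSO and 8.10 in MAK683, and that of CBX8 was 7.19 and 6.0. At both genes the input, by which these values are divided, moved in the opposite direction to them. H3K27me3 over input in DMSO was -0.42 on the log2 scale at CBX2 (-0.85 to -0.0039), -0.66 at CBX8, -0.97 at CBX7 and -1.24 at CBX6. In MAK683 it was -0.44, -0.70, -0.84 and -0.71. No CBX gene came above input in either treatment.

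BMI1 and PCGF2 encode the alternative PCGF subunits of canonical PRC1, which sit next to the ligase. PCGF2 (chr17:36890151-36906070, minus strand) had 200 input, 118 H3K27me3 and 2120 H3K4me3 counts in DMSO, and 249, 83 and 1682 in MAK683. H3K4me3 at PCGF2 was 8.36-fold over input in DMSO (log2 3.06, 2.86 to 3.28) and 6.69-fold in MAK683 (2.74, 2.55 to 2.95), and H3K27me3 was -0.94 and -1.03. PCGF2 thus had an H3K4me3 level close to that of CBX2, and its promoter window held the fewest CG of the 9. That window, chr17:36904540-36904839, covers the canonical start only and lies inside the span of the gene. CG at any other start in the span was not read.

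BMI1 (chr10:22610028-22620413, plus strand) had 18 input, 13 H3K27me3 and 72 H3K4me3 counts in DMSO, and 28, 6 and 35 in MAK683. It did not reach 100 input counts and entered no count of levels. Its low input goes with the annotation, in which only 18.7% of the BMI1 span is not shared with another gene, the read-through gene COMMD3-BMI1 among them. Per kb of span the 2 inputs together gave 4.43 counts at BMI1, but per kb of unshared span 23.7, against 26.4 to 37.0 at the other 8 genes. H3K4me3 over input at BMI1 was 1.62 in DMSO (0.90 to 2.5) and 0.30 in MAK683 (-0.45 to 1.08), and H3K27me3 was -0.62 (-1.81 to 0.45) and -1.57 (-3.23 to -0.37). Since the BMI1 start lies in the shared span, COMMD3, COMMD3-BMI1 and BMI1 were also summed, a choice made after their values were seen. The sum had 30 input, 17 H3K27me3 and 474 H3K4me3 counts in DMSO and 43, 7 and 369 in MAK683. H3K4me3 over input was then 3.64 (3.11 to 4.23) and 3.09 (2.63 to 3.58), among the higher values of the PRC1 genes, and H3K27me3 was -1.01 and -2.07. Values for BMI1 alone are therefore uncertain, and which reads of this span featureCounts kept is not given in the sources used here.

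RING1 and RNF2 encode the ligases that ubiquitinate H2A. RING1 (chr6:33176277-33180499, plus strand) had 44 input, 20 H3K27me3 and 600 H3K4me3 counts in DMSO, and 78, 21 and 417 in MAK683. RNF2 (chr1:185014658-185071735, plus strand) had 725, 369 and 1800 in DMSO, and 769, 367 and 1568 in MAK683. The short RING1 gene, with 4.22 kb, thus had few counts and wide intervals, and RNF2, with 57.1 kb, narrow ones. H3K4me3 over input was 3.41 at RING1 in DMSO (2.99 to 3.91) and 2.40 in MAK683 (2.06 to 2.78), while its input was 2.61 and 4.0 CPM. At RNF2 it was 0.97 (0.85 to 1.10) and 1.02 (0.89 to 1.15). H3K27me3 was below input at both ligase genes, with -1.28 and -1.31 at RING1 and -1.16 and -0.51 at RNF2.

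PHC2 encodes a Polyhomeotic subunit, whose sterile alpha motif domain polymerizes. PHC2 (chr1:33789224-33896696, minus strand) had 1210 input, 807 H3K27me3 and 2497 H3K4me3 counts in DMSO, and 1339, 607 and 2378 in MAK683. It is the longest of the 9 genes, with 107 kb, and 64.2% of its span is unshared. H3K4me3 over input was 0.71 in DMSO (0.61 to 0.81) and 0.82 in MAK683 (0.72 to 0.92), and H3K27me3 was -0.77 (-0.90 to -0.64) and -0.59. PHC2 had the lowest H3K4me3 ratio of the 8 genes and still passed 1.5-fold.

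**Figure D1:**
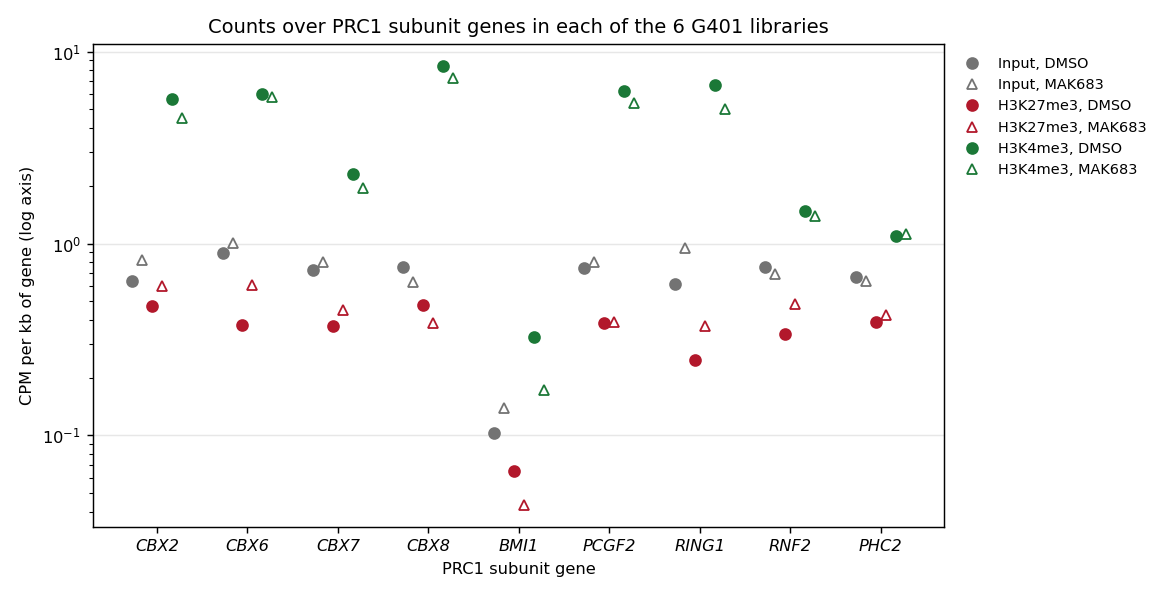
CPM per kb of gene (log axis) of the 9 PRC1 subunit genes in the 6 libraries, with filled circles for DMSO, open triangles for MAK683, gray for input, red for H3K27me3 and green for H3K4me3, 1 library per point. At every gene green lies above gray and red below gray, and BMI1, with 18.7% of its span unshared, lies below the rest in all libraries.

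Over the 8 genes with enough input, H3K27me3 reached 1.5-fold over input at 0 of 8 in DMSO, where 18.4% of all genes did, and at 0 of 8 in MAK683, where 15.8% did. It was also rare among the 6712 genes with H3K4me3 at 1.5-fold over input in DMSO. Of these, 222 reached it in DMSO and 170 in MAK683. The upper bound of the interval lay below input at all 8 in both treatments. Values below input are common, since 27.3% of all genes, and 5.15% of those 6712 genes, came above input in DMSO. The median of the 8 genes was -0.96 in DMSO, beside -0.75 for all genes, and -0.70 in MAK683, beside -0.56. Set against the median of all genes in place of input, CBX2 and CBX8 lay 0.33 and 0.09 above it in DMSO, and the other 6 below. H3K4me3 reached 1.5-fold at 8 of 8 in DMSO, with 31.6% of all genes, and at 8 of 8 in MAK683, with 30.4%. The median H3K4me3 level was 2.91 in DMSO, beside -0.25 for all genes, and 2.42 in MAK683, beside -0.12.

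Within the 8 genes the H3K4me3 levels in DMSO ran in the order CBX8, RING1, CBX2, PCGF2, CBX6, CBX7, RNF2 and PHC2. From CBX8 to CBX6 the interval of each gene overlapped that of the next, while the intervals of CBX8 and CBX6, at the ends of this group, did not overlap. The intervals of CBX6 and CBX7, of CBX7 and RNF2, and of RNF2 and PHC2 did not overlap. In MAK683 CBX8 stood alone at the top, PCGF2, CBX6, CBX2 and RING1 overlapped in sequence, and so did CBX7, RNF2 and PHC2. The order is also close to that of gene length. A peak at the start would be spread over more input in a long gene. Where the counts lay within a gene was not read, so this was not tested. As CPM above input, a measure that does not divide by length, H3K4me3 in DMSO was 87.7 at PCGF2, 73.4 at CBX8, 55.7 at CBX6, 51.1 at CBX7, 49.5 at CBX2, 45.5 at PHC2, 41.5 at RNF2 and 25.6 at RING1. By this measure RING1, the second by ratio, was the lowest, and CBX7, RNF2 and PHC2 were near CBX2. When input was scaled down to 0.474 of its CPM, the tenth percentile of the H3K4me3 ratio over all genes, the values were 94 at PCGF2, 83.3 at PHC2, 64.2 at RNF2, 63.5 at CBX7 and 27 at RING1. The rank of a PRC1 gene by H3K4me3 thus depended on the measure.

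**Figure D2:**
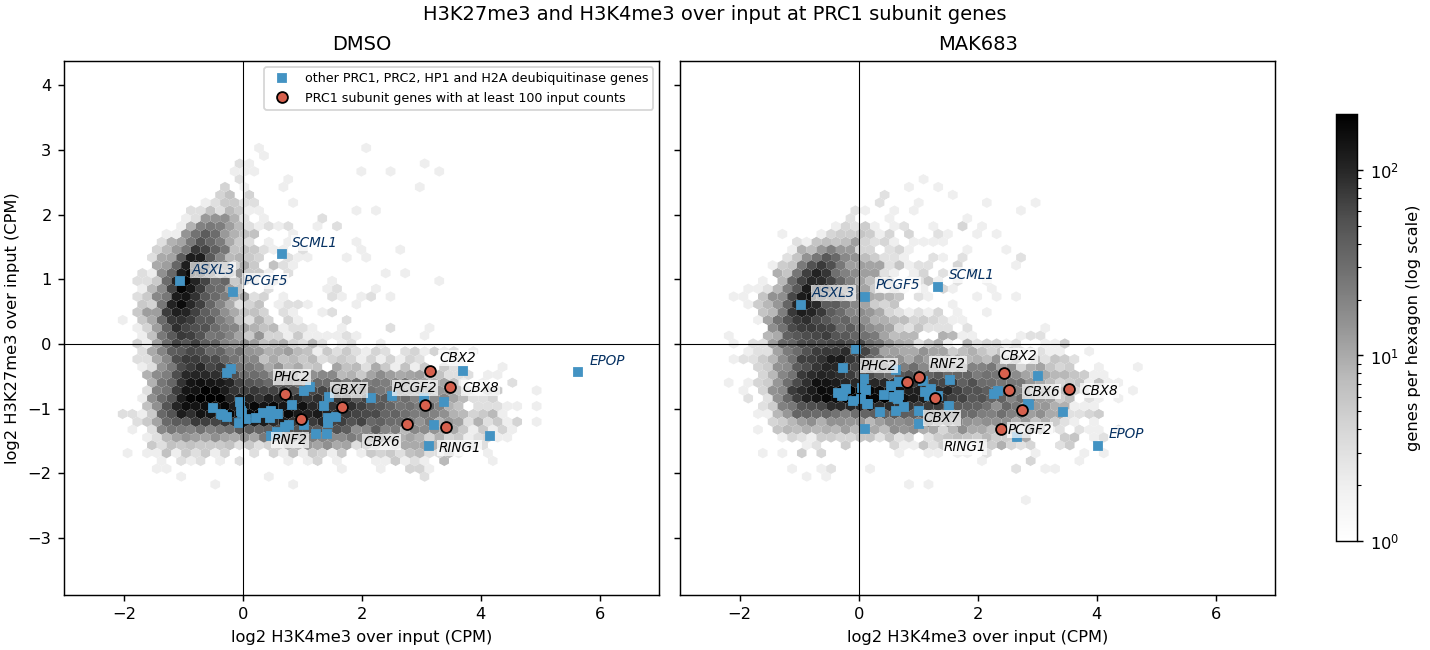
Log2 H3K27me3 over input against log2 H3K4me3 over input in DMSO and in MAK683, with all genes of at least 100 input counts as gray hexagons (genes per hexagon, log scale), the 8 PRC1 subunit genes as red circles and 44 genes of related complexes as blue squares. The red circles sit to the right of and below 0 in both panels, while SCML1, PCGF5 and ASXL3 sit above 0.

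The comparison of MAK683 with DMSO asks whether blocking PRC2 shifted either mark at the genes of the partner complex. For H3K27me3 the raw counts were lower in MAK683 at 7 of 9 genes and at 85.3% of all genes, in a library with 0.694 times the total of the DMSO one. Relative to all genes, 0 of the 9 were called lower, where 18.7% of all genes were, and 2 were called higher, CBX6 and RNF2, where 15.9% were. Of the genes with H3K4me3 at 1.5-fold over input in DMSO, 7.26% were called lower and 20.5% higher. CBX6 had 53.0% of its H3K27me3 counts in MAK683 (45.1 to 60.8), a relative log2 change of 0.61. RNF2 had 49.9% (46.2 to 53.5), a change of 0.43. In DMSO the H3K27me3 of CBX6 was 0.42 of input and that of RNF2 0.45, near 0.43, the tenth percentile of this ratio over all genes. Both genes remained below input in MAK683, at 0.61 and 0.70, so these calls rest on low ratios. The other 7 intervals held the value of 42.4%, from 36.0% at CBX8 (28.0 to 44.7) to 51.2% at RING1 (35.1 to 67.1), with changes of -0.38 at CBX8, -0.56 at BMI1, -0.06 at PCGF2, 0.03 at PHC2, 0.19 at CBX7, 0.27 at CBX2 and 0.51 at RING1. At 1.5-fold, 0 of 9 were lower, with 8.9% of all genes, and 1 was higher, CBX6, with 9.03%. The median change of the 9 genes was 0.19, beside 0 for all genes by construction and 0.12 for the 6712 genes with H3K4me3 at 1.5-fold over input in DMSO. With the counts as deposited, which leave the difference in library totals in place, that median was -0.25. By interval 3 genes were then lower, CBX8, PCGF2 and PHC2, and 0 higher, with RNF2 at -0.0078 and CBX6 at 0.17.

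H3K4me3 counts fell short of those in DMSO at each of the 9 genes, in a library with 0.922 times the total. The same was so at 61.9% of all genes and at 94.5% of the genes with H3K4me3 at 1.5-fold over input in DMSO. Relative to all genes, 6 of 9 were called lower, where 21.8% of all genes were, and 0 were called higher, where 19.3% were. RING1 had 41.0% of its H3K4me3 counts in MAK683 (38.0 to 44.1), CBX2 42.4% (40.2 to 44.5), CBX7 43.8% (42.0 to 45.7), PCGF2 44.2% (42.7 to 45.8), CBX8 44.4% (42.6 to 46.1) and BMI1 32.7% (24.0 to 42.5). Their relative changes were -0.41, -0.33, -0.24, -0.22, -0.21 and, at BMI1, -0.91. CBX6 with 46.9%, RNF2 with 46.6% and PHC2 with 48.8% had intervals that held 48.0%. At 1.5-fold, 1 of 9 was lower, BMI1, with 5% of all genes, and 0 were higher, with 9.94%. The sum over the BMI1 locus had 43.8% (40.4 to 47.2), close to the other 5 genes called lower.

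Lower calls were also common among other genes with H3K4me3 over input. Of the 6712 genes with H3K4me3 at 1.5-fold over input in DMSO, 59.7% were called lower and 4.05% higher. Their median change was -0.17, beside -0.22 for the 9 genes. The 6712 were picked by their H3K4me3 counts in DMSO, by which the change is divided, so the pick itself favored lower calls. With these genes as the reference, chosen after the data were seen, 3 of the 9 were called lower, CBX2, RING1 and BMI1, 1 higher, PHC2, and the median was -0.048.

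**Figure D3:**
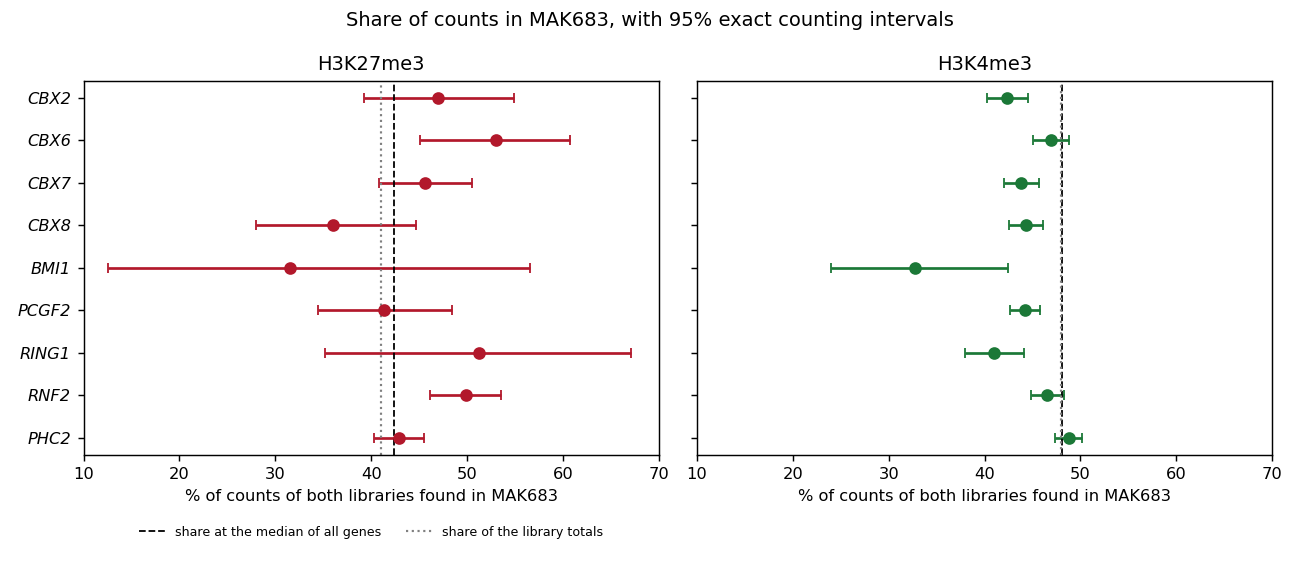
Share of the H3K27me3 counts (left) and H3K4me3 counts (right) of both treatments found in MAK683, in percent, for the 9 PRC1 subunit genes, with 95% exact counting intervals, the share at the median of all genes (dashed) and the share of the library totals (dotted). In H3K27me3 the whole intervals of CBX6 and RNF2 lie to the right of the dashed line of 42.4%, and in H3K4me3 the whole intervals of 6 genes lie to the left of 48.0%.

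The other genes of these complexes were taken from lists of known subunits and enzymes, 44 genes in 5 lists. H3K27me3 reached 1.5-fold over input in DMSO at 3 of the 44, below the 18.4% of all genes, and these 3 held the mark at that level in MAK683 too. SCML1, a Sex comb on midleg-like partner of canonical PRC1, had 104 input, 313 H3K27me3 and 207 H3K4me3 counts in DMSO, and 142, 180 and 363 in MAK683. PCGF5 had 774, 1541 and 868 in DMSO, and 824, 936 and 892 in MAK683. ASXL3, a cofactor of the H2A deubiquitinase BAP1, had 1872, 4189 and 1144 in DMSO, and 2375, 2472 and 1215 in MAK683. In all 3 H3K27me3 was above input and was called lower relative to all genes, as it was at 18.7% of all genes. The changes were -0.35 at SCML1, -0.28 at PCGF5 and -0.32 at ASXL3. H3K4me3 was called higher, by 0.92, 0.15 and 0.20, as it was at 19.3% of all genes. In DMSO and MAK683, H3K4me3 was 1.57 and 2.53 of input at SCML1, 0.89 and 1.08 at PCGF5, and 0.48 and 0.51 at ASXL3. The value of ASXL3 in DMSO lay near 0.474, the tenth percentile of this ratio over all genes. The 3 genes were picked by H3K27me3 over input, which none of the 9 PRC1 genes had, so the pattern could not occur among the 9. The pick also used the DMSO H3K27me3 counts, by which the change is divided, and so favored a lower call. PCGF5 thus had H3K27me3 at 0.81 over input in DMSO, where its relative PCGF2 had -0.94, with a promoter window richer in CG than that of PCGF2. The span of PCGF5 begins at chr10:92922769 and its window at 92980170, so CG at any other start in the span was not read.

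Of the HP1 genes, whose chromodomain proteins read H3K9 methylation, CBX3 had H3K4me3 at 3.14, CBX1 at 1.42 and CBX5 at 0.48, and H3K27me3 lay between -1.58 and -1.14. H3K4me3 reached 1.5-fold in DMSO at 3 of 6 other canonical PRC1 genes, 10 of 17 variant PRC1 genes, 2 of 3 HP1 genes, 2 of 6 H2A deubiquitinase genes and 7 of 12 PRC2 genes. Over the 44 genes that is 24, beside 31.6% of all genes, with a median of 0.68 where the 8 PRC1 genes had 2.91. PCGF1, of variant PRC1, had 4.16, and the PRC2 cofactor gene EPOP, listed under its older name C17orf96, had 5.64, the highest ratio of all 21263 genes, on 30 DMSO input counts. The medians are not matched for length, which can lower the ratio. The 44 genes ran up to 1195 kb, and the 8 from 4.22 to 107 kb. As CPM above input, BCOR had 309, KDM2B 93.7 and EPOP 89.5, above the 87.7 of PCGF2, and the rest of the 44 had less. In the H3K4me3 change, 25 of the 44 were called lower and 7 higher, beside 21.8% and 19.3% of all genes and 59.7% and 4.05% of the genes with H3K4me3 at 1.5-fold over input in DMSO. In the H3K27me3 change, 4 were called lower and 11 higher, beside 18.7% and 15.9% of all genes.

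To see whether the genes around shared these levels, those within 150 kb of a PRC1 gene were read on the same annotation. Of 83 such genes 46 passed the input filter, and 2 of these reached 1.5-fold in H3K27me3 and 26 in H3K4me3 in DMSO, beside 18.4% and 31.6% of all genes. Their median H3K27me3 was -0.91 and their median H3K4me3 0.85. CBX2 and CBX8 lie 4.15 kb apart on chromosome 17, with H3K4me3 of 3.15 and 3.48. TBC1D16, the farthest of their neighbors read, 131 kb from CBX8, had 0.04. It spans 104 kb, which can lower its ratio, so these levels cannot be compared directly. PCGF2 overlaps CISD3, at 2.91 in H3K4me3, and lies 2.92 kb from PSMB3, at 2.06, and EPOP lies 58.9 kb away. RING1 lies between SLC39A7 and RXRB on one side, with H3K4me3 of 3.15 and 2.65, and VPS52 on the other, with 1.33. Beyond them, 101 kb from RING1, the collagen pseudogene COL11A2P1 had H3K27me3 of 0.82 on 46 DMSO input counts.

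Around PHC2 and RNF2 the highest H3K27me3 over input lay at CSMD2 and FAM129A. CSMD2, 82.9 kb from PHC2, had 7722 input and 21886 H3K27me3 counts in DMSO, 1.32 over input, while ZSCAN20 between them had -0.88 and PHC2 itself -0.77. FAM129A, 71.0 kb from RNF2, had 2214 input and 3759 H3K27me3 counts, 0.58 over input and just short of 1.5-fold, and RNF2 had -1.16. Between them GS1-120K12.4, 36.7 kb from RNF2, had 0.10 on 78 input counts. Relative to all genes, the H3K27me3 change was -0.28 at CSMD2 and 0.03 at PHC2, and -0.26 at FAM129A and 0.43 at RNF2.

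**Figure D4:**
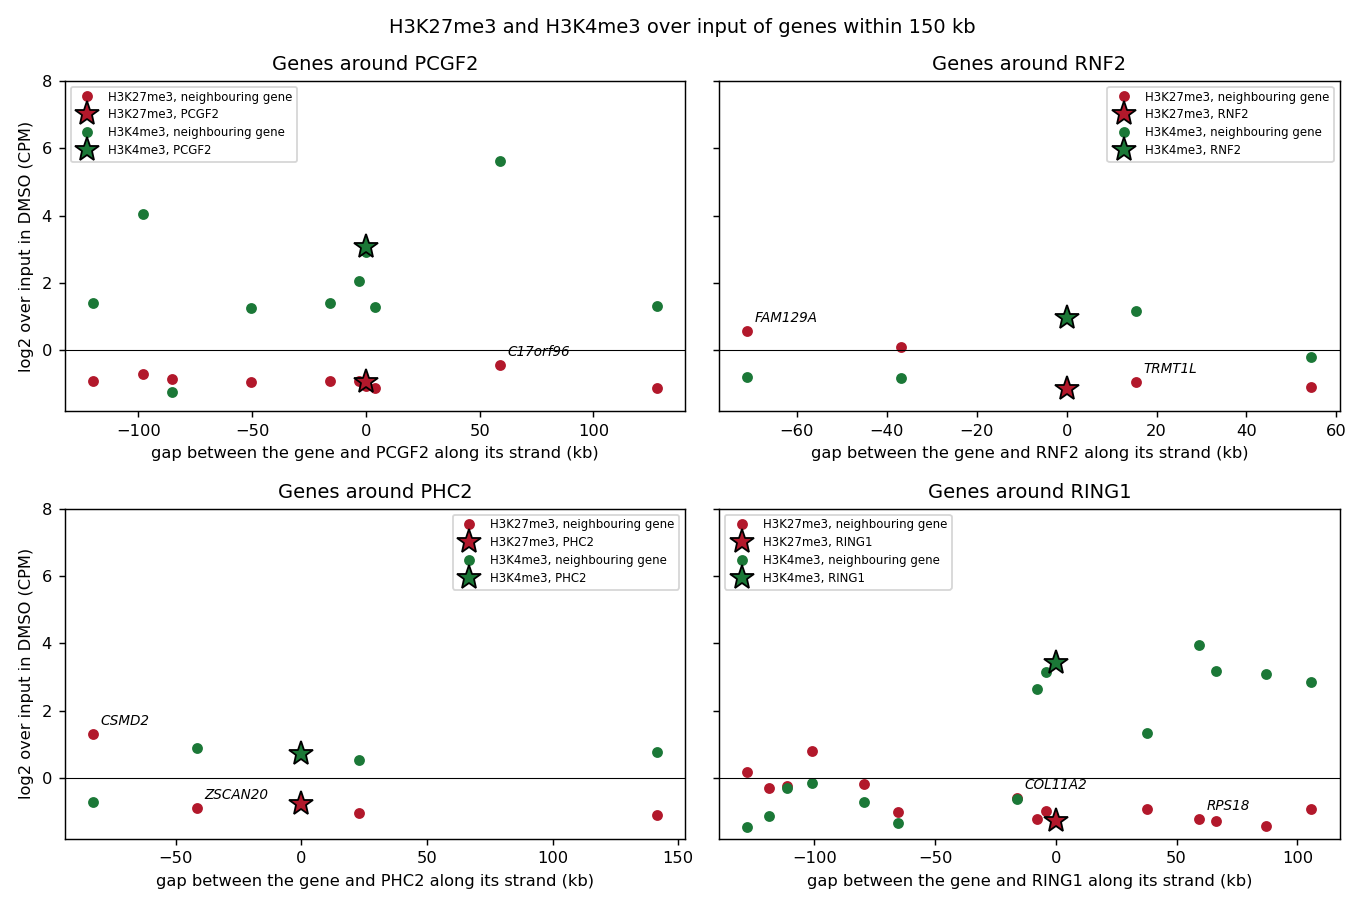
Log2 H3K27me3 (red) and H3K4me3 (green) over input in DMSO of the genes within 150 kb of PCGF2, RNF2, PHC2 and RING1, against the gap in kb along the strand of that gene, with stars for the gene itself and circles for its neighbors. C17orf96 (EPOP) has the highest H3K4me3 at 5.64, while CSMD2 at 1.32 and FAM129A at 0.58 lie above input in H3K27me3, and the stars of PHC2 and RNF2 lie below it.

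For each gene the most similar genes were found by the distance over 4 values, H3K27me3 and H3K4me3 over input in both treatments, among 13415 protein-coding genes with enough input and at least 50% unshared span. PCGF2 was closest to F2RL1 (distance 0.062 in log2 units) and CCT8. CBX7 was closest to ZNF777 (0.079) and PPA1, CBX6 to KCTD15 (0.079) and PPIF, and RING1 to CIB1 (0.081) and TOR2A. PHC2 was closest to OPRL1 (0.083) and CDK5RAP1, and RNF2 to GLRX3 (0.086) and MTPN. CBX8 was closest to ZYX (0.17) and CHPF2, and CBX2 to PRSS16 (0.22) and ACTR1B. BMI1, on 18 and 28 input counts, had larger distances, with PIGO at 0.37 and FAM132A at 0.39. The nearest gene to each of the other 8 thus lay at 0.062 to 0.22 on this measure, over 2 treatments with 1 library each. With 13415 genes and 4 values a near gene is likely for many genes. The nearest distances of other genes were not read, so these do not tell whether the PRC1 genes are usual.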

How the data were processed

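ChIP-seq libraries of H3K27me3, H3K4me3 and input from G401 cells given DMSO or MAK683 at 3 µM were analysed, 1 per treatment and antibody. Per the labels and methods, the authors trimmed reads with Trim Galore 0.4.4, mapped them on hg19 (Bowtie2), took out repeats (Picard 2.23.6) and counted reads per gene with featureCounts. The authors deposited whole-number counts for 56638 genes. A Drosophila spike-in is described, and the counts do not carry it. The gene annotation and the part of a gene counted are not given in the sources used here. Columns without a sample numbered 0.

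Groups follow the labels. The genes and lists were chosen with earlier results of these data known. Levels used a pseudocount of 0.05 CPM and changes one of 1 count, with the all-gene median taken where either library of the antibody had 10 counts or more. All 9 PRC1 genes were named, and of the other lists those past 1.5-fold in a level or change, with CBX1, CBX3 and CBX5, genes within 150 kb, the 2 most similar genes and SMARCB1. Some items within this rule are not reported here. Coordinates are from GENCODE release 44 on GRCh37, with 33514 genes matched by symbol and 1839 by an older symbol. Tools were Python 3.11.15, numpy 2.4.6, pandas 2.3.3, scipy 1.17.1 and matplotlib 3.10.9. The scripts were tested on simulated counts. Alternatives were other scalings, references, pseudocounts, filters, folds and pooled input.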

Additional observations from a re-analysis of the deposited data

How the results depend on the processing

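No paired analysis was possible because there was 1 library per treatment and antibody, and no replicate could be left out. Of 489 alternative values, 399 were counted as kept, a label that required neither the same sign nor the same number of genes. Among them, H3K27me3 at BMI1 in DMSO went from -0.62 to 0.13 relative to the median of all genes. The H3K27me3 change went from 0.51 to -0.017 at RING1 and from 0.27 to -0.023 at CBX2 when taken over input. The number of genes lower in H3K4me3 by interval went from 6 to 9 with median-of-ratios size factors. H3K27me3 reached 1.5-fold over input at 0 genes under every alternative. H3K4me3 reached it at all genes that passed the input filter with another pseudocount, pooled input or centring, and 2-fold at 6 of 8 in DMSO and 7 of 8 in MAK683. Relative to the median of all genes, the median H3K27me3 level was -0.20 in DMSO and -0.14 in MAK683, with CBX2 at 0.33 and 0.12, CBX8 at 0.095 in DMSO and RNF2 at 0.049 in MAK683, and the median H3K4me3 level in DMSO was 3.15. With at least 500 input counts 3 genes were left, with median H3K4me3 of 0.97 and 1.02.

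For the H3K27me3 change, counts as deposited gave 3 genes lower and 0 higher by interval, 2 lower and 0 higher at 1.5-fold, a median of -0.25 and -0.0078 at RNF2. Over input 1 gene was lower at 1.5-fold and the median was -0.017. At 1.5-fold, CPM gave 2 higher, a pseudocount of 0.5 gave 1 lower and one of 5 gave 0 higher. Median-of-ratios size factors and references of protein-coding or H3K4me3-positive genes each gave 1 lower and 0 higher, and at 2-fold 0 were higher.

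For the H3K4me3 change, counts as deposited gave a median of -0.33 with 8 lower by interval, and median-of-ratios size factors -0.40 with 9 lower by interval and 2 at 1.5-fold. Over input 5 were lower by interval and 3 were lower at 1.5-fold, BMI1, CBX2 and RING1, and CBX8 was at 0.051. Protein-coding genes as the reference gave 1 higher by interval. H3K4me3-positive genes, added after seeing the data, gave 3 lower, 1 higher and a median of -0.048. Without BMI1, also added later, 0 were lower at 1.5-fold, and at 2-fold 0 were lower. The cause of these shifts was not tested beyond what each setting changes by its construction. The depth limits BMI1 and RING1 most, with 13 and 20 H3K27me3 counts in DMSO.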
